A study of Homo sapiens with 27 samples.

Results

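The genes described here are 37 genes of the oxygen-sensing and glucose-burning machinery, out of 60604 gene entries counted by RNA sequencing in a human endothelial cell line. They were chosen by symbol: each is a named glycolytic enzyme, glucose or lactate carrier, hypoxia-inducible factor (HIF) subunit, oxygen sensor or known hypoxia target. The rule sets no threshold on a measured value, but the set was drawn up with earlier results of these data known. All 37 symbols matched 1 entry each. The endothelial line was EA.hy926, a fusion of endothelium from the umbilical vein with A549 lung carcinoma cells. The stromal cells that met it were ASC52telo, a single adipose mesenchymal stromal cell (MSC) line immortalised with telomerase (TERT).

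There were 7 groups. Endothelial cells were co-cultured directly with senescent or with young MSCs at 1 MSC per endothelial cell, were grown on decellularised extracellular matrix (ECM) left by senescent or by young MSCs, or received conditioned medium (CM) from senescent or from young MSCs mixed with an equal part of fresh medium; control cells met no MSC product. Exposure lasted 48 h. MSCs were made senescent by 18 h in 1.5 µg/mL mitomycin C, which crosslinks DNA, followed by 10 days of culture, and young MSCs were left untreated. No label names a low-oxygen treatment. Senescent co-culture had 3 libraries, numbered 2 to 4, and each of the other 6 groups had 4. Results are given for replicates 2 to 4 (n = 3 per group), with replicate 1 shown apart. The labels do not say whether replicates came from separate cultures, so the p-values speak only of the spread among these libraries, and that spread may be technical.

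As background, HIF is a dimer whose alpha subunit (HIF1A, or EPAS1, also called HIF-2 alpha and abundant in endothelium) is made all the time and destroyed in normal oxygen after prolyl hydroxylation by the EGLN enzymes. When oxygen falls, the subunit persists, binds a short DNA core in target promoters and enhancers, and raises genes for glucose uptake, glycolysis, lactate export and mitophagy. Endothelial cells make most of their ATP by glycolysis even in normal oxygen, and PFKFB3, whose product activates phosphofructokinase, is a known driver of vessel sprouting. HIF activity depends on the stability of the protein, which RNA counts do not show.

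Total counts ran from 66320519 to 111512357 per library, and the 37 genes took 1.92 to 2.69% of them in replicates 2 to 4. The endothelial check list of 12 genes was present in every group, with EMCN under 1 CPM in all groups, and the haematopoietic list summed to at most 1.32 CPM in replicates 2 to 4. In replicate 1 of the control, ECM and CM groups, stromal markers were high: COL1A1, the main chain of collagen I, was at 1887 to 5262 CPM there, against 4.28 to 10.3 CPM in replicates 2 to 4 of those groups, and TERT was at 633 to 1274 CPM, against 1.18 to 2.25 CPM. The extraction protocol in the labels speaks of RNA taken from MSCs, whereas the cell type label says endothelial; the libraries are called here by their group labels, and the labels do not settle which cells gave the RNA. In replicates 2 to 4, ribosomal protein genes took over 10% of counts in control replicate 3 (10.4%), young ECM replicate 3 (12.4%) and young CM replicates 2 (12.1%) and 3 (12.3%), and 5.75 to 9.37% in the other libraries. CPM here is the usual count scaled to library size, after TMM scaling over all 27 libraries.

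The 250 bases upstream of the RefSeq transcription start are shown for DDIT4, ANKRD37, ENO2 and SLC2A1, since these genes passed the test in at least 1 comparison below and moved in different directions between ECM and CM. The HIF core was searched as ACGTG or GCGTG on either strand, so CACGT or CACGC on the strand shown also count; cores may overlap, as in CACGTG, which reads as a core on each strand. Bases of a core are in capitals, each sequence runs 5′ to 3′ on the gene's strand, and the build is GRCh38.p14.
DDIT4 (chr10:72273674-72273923, + strand): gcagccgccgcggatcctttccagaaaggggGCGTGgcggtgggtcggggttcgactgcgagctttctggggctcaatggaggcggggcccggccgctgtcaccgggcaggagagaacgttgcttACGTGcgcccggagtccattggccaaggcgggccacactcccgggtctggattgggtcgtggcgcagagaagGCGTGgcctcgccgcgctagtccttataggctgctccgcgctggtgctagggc
ANKRD37 (chr4:185396591-185396840, + strand): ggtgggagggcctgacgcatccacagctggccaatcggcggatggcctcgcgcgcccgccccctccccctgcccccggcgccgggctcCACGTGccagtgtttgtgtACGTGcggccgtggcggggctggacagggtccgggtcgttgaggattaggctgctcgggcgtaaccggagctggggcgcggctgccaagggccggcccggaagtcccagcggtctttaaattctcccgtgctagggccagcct
ENO2 (chr12:6914330-6914579, + strand): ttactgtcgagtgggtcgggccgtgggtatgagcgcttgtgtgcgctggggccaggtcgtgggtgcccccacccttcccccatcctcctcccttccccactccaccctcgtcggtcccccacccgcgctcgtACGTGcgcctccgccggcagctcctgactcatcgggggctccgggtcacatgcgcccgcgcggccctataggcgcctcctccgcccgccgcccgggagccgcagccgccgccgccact
SLC2A1 (chr1:42958869-42959118, - strand): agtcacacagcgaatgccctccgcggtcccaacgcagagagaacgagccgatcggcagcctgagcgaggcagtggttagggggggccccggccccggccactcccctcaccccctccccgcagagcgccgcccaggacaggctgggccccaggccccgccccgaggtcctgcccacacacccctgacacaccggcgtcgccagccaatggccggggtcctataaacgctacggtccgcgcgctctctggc
The DDIT4 and ANKRD37 windows held 3 cores each, the ENO2 window 1, and the SLC2A1 window 0. Over all RefSeq promoters, 43.2% of 35116 windows of this length held a core. The table had 64 windows for 34 of the 37 genes, of which 39 (60.9%) held a core, and 29 of the 34 genes had it in at least 1 window. Only 21 genes had 1 window, and the others had more places for a match. The 43.2% is a share of windows, and the matching share of all genes is not given. Many of the 37 genes were also chosen as known hypoxia targets. A match describes letters in this window and not a bound site.

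Direct co-culture was compared with control first, which asks what contact with MSCs did to this set. With senescent MSCs 7 of the 35 genes that passed the filter on low counts also passed the test (6 higher, 1 lower), and with young MSCs 6 did (6 higher, 0 lower), at an adjusted p under 0.05. Over all genes tested, 8.07% passed with senescent MSCs (5.84% higher, 2.23% lower) and 9.68% with young MSCs (6.7% higher, 2.98% lower). As shares of the 35 genes tested these are 20.0% and 17.1%. The genes that rose were both HIF alpha subunits, the glucose carriers and a few hypoxia targets, and no glycolytic enzyme passed in either comparison. The median log2 difference of the 35 genes was 0.02 with senescent and -0.07 with young MSCs, against 0.02 and 0.01 over all genes. Both comparisons use the same 3 control libraries. In bulk RNA, fewer cells of a type and less RNA per cell cannot be told apart, and the sources used here do not say whether endothelial cells were separated from MSCs before lysis.

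EPAS1 (ENSG00000116016) was at 116, 122 and 136 CPM in senescent co-culture and at 158, 95.5 and 106 CPM in young co-culture, against 57.1, 29.6 and 48.3 CPM in control. Every co-culture library lay above every control, ECM and CM library of replicates 2 to 4. The log2 fold change was 1.48 ± 0.25 (SE; adjusted p = 0.00294, edgeR) with senescent and 1.42 ± 0.24 (adjusted p = 0.00373) with young MSCs. HIF1A (ENSG00000100644), the ubiquitous alpha subunit, was at 206, 203 and 252 CPM in senescent co-culture and at 243, 209 and 239 CPM in young co-culture, against 128, 157 and 147 CPM in control. It too was above all libraries of the other 5 groups among replicates 2 to 4, by a smaller step: 0.62 ± 0.14 (adjusted p = 0.0159) with senescent and 0.68 ± 0.14 (adjusted p = 0.00994) with young MSCs. The oxygen sensor EGLN1, a HIF prolyl hydroxylase, lay between 4.37 and 13.9 CPM over all groups, and passed in no comparison. EGLN3, its paralogue that HIF induces in many cells, had at most 0.049 CPM in any of these libraries.

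SLC2A1 (ENSG00000117394), the glucose carrier GLUT1, was at 97.1, 102 and 101 CPM in senescent co-culture and at 120, 92.8 and 99.7 CPM in young co-culture, against 76.4, 38.6 and 62.1 CPM in control. The groups did not overlap, although control replicate 2 came close, and the log2 fold change was 0.77 ± 0.21 (adjusted p = 0.0487) with senescent and 0.83 ± 0.21 (adjusted p = 0.0325) with young MSCs. SLC2A3, the high-affinity carrier GLUT3, was at 39.5, 42.4 and 42.3 CPM in senescent co-culture, against 29.7, 21.1 and 28.6 CPM in control, a rise of 0.66 ± 0.15 (adjusted p = 0.0201). With young MSCs it was at 38.3, 34.5 and 37.9 CPM, also above every control library, and its 0.49 ± 0.15 missed the threshold (adjusted p = 0.0673). With the replicate number as a block in edgeR it passed (0.50, adjusted p = 0.0478). Same-numbered libraries of these groups had correlations of 0.229 to 0.737. That fit also held senescent co-culture, which the numbers did not pair with control (-0.207 to 0.345), and the share of all genes under this block is not given.

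DDIT4 (ENSG00000168209), which encodes REDD1, an inhibitor of the growth kinase mTORC1 induced by hypoxia and other stress, had the largest log2 fold change of the 35 genes in both comparisons. It was at 16.1, 14.4 and 11.5 CPM in senescent co-culture and at 18.2, 17.5 and 16.9 CPM in young co-culture, against 3.85, 2.90 and 4.55 CPM in control. The lowest co-culture library was above the highest control library by more than the spread within any of these groups, and the log2 fold change was 1.90 ± 0.19 (adjusted p = 8.32e-05) with senescent and 2.22 ± 0.19 (adjusted p = 6.44e-05) with young MSCs. ANKRD37 (ENSG00000186352), a small ankyrin-repeat protein and HIF target, was at 3.82, 3.73 and 3.50 CPM in senescent co-culture and at 3.11, 4.08 and 3.58 CPM in young co-culture, against 2.48, 2.50 and 2.31 CPM in control. The groups did not overlap; the steps were 0.61 ± 0.16 (adjusted p = 0.0345) with senescent and 0.57 ± 0.16 (adjusted p = 0.0414) with young MSCs.

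KDM3A (ENSG00000115548), a histone H3 lysine demethylase induced by HIF, was at 58.2, 53.9 and 56.0 CPM in young co-culture, against 32.0, 39.8 and 39.7 CPM in control, a rise of 0.60 ± 0.14 (adjusted p = 0.0171). In senescent co-culture it was at 46.5, 46.7 and 54.8 CPM, again above all control libraries, but with a difference of 0.42 ± 0.14 that missed the threshold (adjusted p = 0.0887). BNIP3L, a mitophagy receptor also called NIX, was the member that fell: it was at 109, 106 and 117 CPM in senescent co-culture, against 136, 223 and 161 CPM in control (-0.63 ± 0.17, adjusted p = 0.0414). With young MSCs it was at 124, 153 and 134 CPM, which overlapped control (-0.33 ± 0.17, adjusted p = 0.273).

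**Figure D1:**
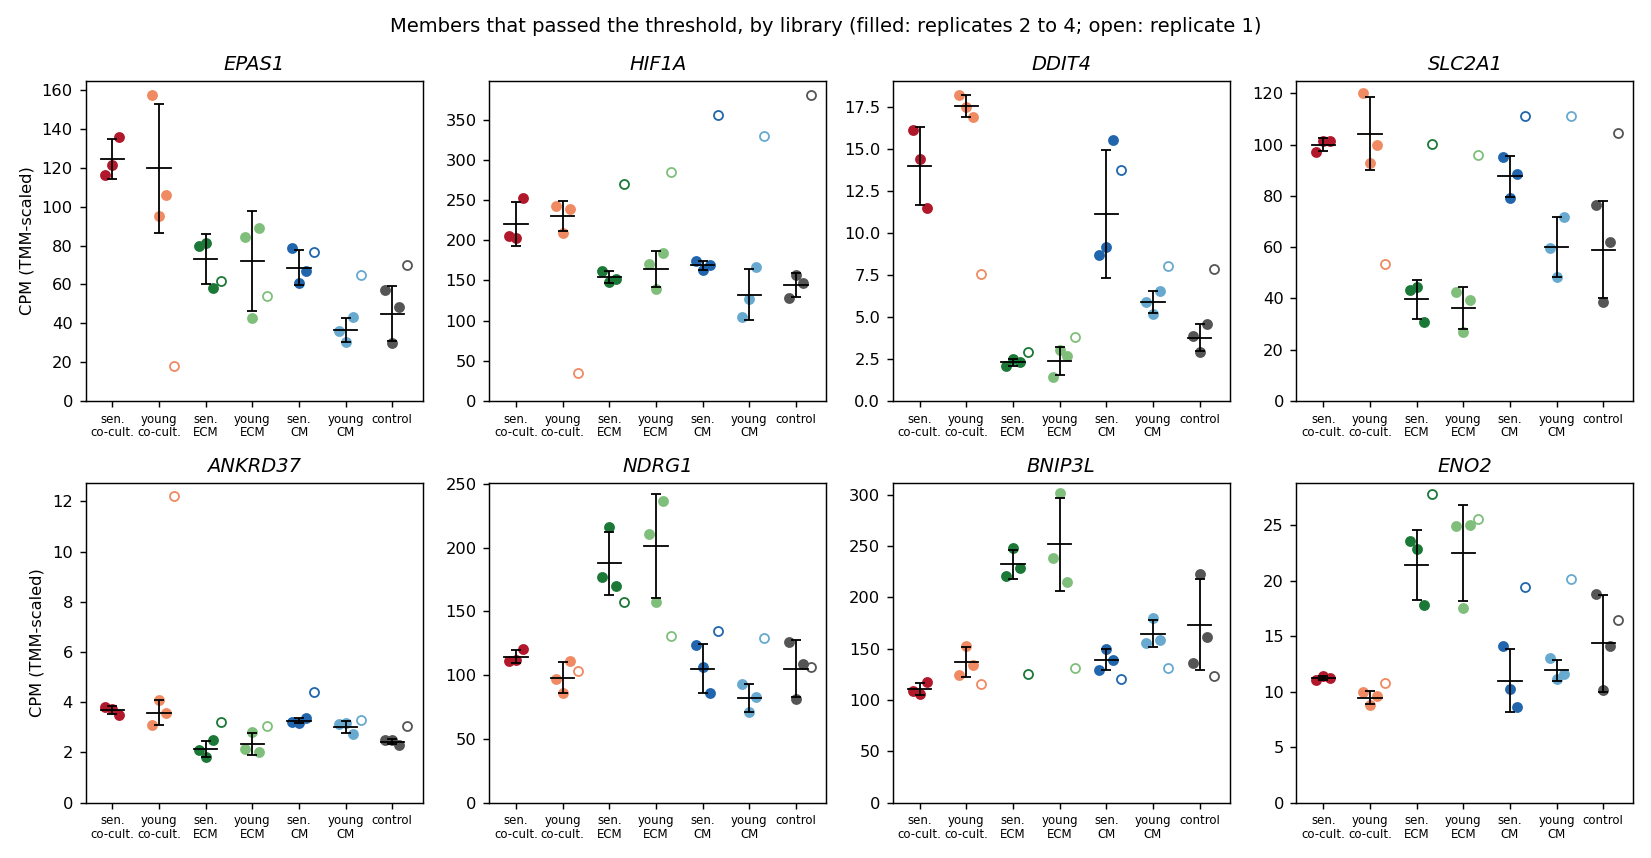
CPM after TMM scaling on the y axis for 8 genes, by group on the x axis: senescent (sen.) and young co-culture, ECM and CM, then control. Filled points are replicates 2 to 4, open points replicate 1, and bars the mean and SD of replicates 2 to 4; among the filled points EPAS1, HIF1A and DDIT4 are highest in co-culture, where DDIT4 lies between 11.5 and 18.2 CPM, and NDRG1, BNIP3L and ENO2 are highest on ECM.

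The 15 glycolytic enzymes did not follow the carriers. Their log2 differences from control ran from -0.37 to 0.08 (median -0.16, smallest adjusted p 0.163) with senescent MSCs and from -0.60 to 0.07 (median -0.26, smallest adjusted p 0.0866) with young MSCs. GAPDH, which makes the first NADH of the pathway, was at 6767, 6016 and 5703 CPM in senescent co-culture and at 5476, 6996 and 6181 CPM in young co-culture, against 7272, 7166 and 7177 CPM in control. All 6 co-culture libraries lay under all 3 control libraries, with differences of -0.22 ± 0.14 (adjusted p = 0.434) and -0.20 ± 0.14 (adjusted p = 0.426), which did not pass. GAPDH was picked after its values were seen, so the separation adds no support. How many of all genes separate like this is not given. The 3 lactate and pyruvate genes differed by 0.03 to 0.16 with senescent MSCs and by -0.07 to 0.06 with young MSCs, and none passed; they are LDHA, which makes lactate, SLC16A3, the lactate exporter MCT4, and PDK1, the kinase that closes pyruvate dehydrogenase.

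Only EPAS1 and DDIT4 passed in both comparisons whichever single library was left out. The calls of the other genes rested on particular libraries: without control replicate 4 only those 2 genes passed in each comparison. The senescent comparison also came down to those 2 genes without senescent co-culture replicate 2, 3 or 4, and the young one without young co-culture replicate 4, with 3 genes left without young co-culture replicate 2. Without control replicate 3, a library above 10% ribosomal protein counts, the young comparison called 10 genes, 6 higher and 4 lower, and the senescent one 7, with ANKRD37 and BNIP3L no longer among them. ANKRD37 was also lost without young co-culture replicate 3. Over all genes the count past the threshold moved as well in these omissions, from 786 to 2147 in the senescent and from 884 to 2367 in the young comparison. The share of all genes in each single omission is not given, so a change in these set counts is not a result about the set.

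The stromal markers of the check list moved with these results. Their 14 genes summed to 339 to 445 CPM in senescent co-culture and to 168 to 231 CPM in young co-culture, against 47.8 to 56.7 CPM in control. COL1A1 alone was at 118 to 169 CPM with senescent and at 47.3 to 71.7 CPM with young MSCs. TERT had the opposite order, at 3.00 to 4.50 CPM with senescent and 5.94 to 7.97 CPM with young MSCs, against 1.52 to 1.87 CPM in control. The endothelial list moved too, at 3469 to 3754 CPM in senescent and 3046 to 3629 CPM in young co-culture, against 1494 to 2105 CPM in control. So did the epithelial list of 6 genes, which stands for the A549 side of the line. It summed to 3152 to 3623 CPM in senescent and 3862 to 4489 CPM in young co-culture, against 1990 to 2430 CPM in control. The keratins KRT7 and KRT8 were higher in both comparisons, and KRT19 and CDH1 were under 1 CPM in all groups. EPCAM was under 1 CPM in every co-culture library of replicates 2 to 4, but not in every such control library. In the 5 replicate 1 libraries with high COL1A1, EPAS1 was at 53.8 to 76.5 CPM, SLC2A3 at 27.4 to 31.5 CPM and KDM3A at 22.5 to 27.0 CPM, all under the co-culture libraries of replicates 2 to 4. HIF1A was at 270 to 381 CPM in those 5 libraries, which is above the co-culture libraries, while SLC2A1 at 96.1 to 111 CPM overlapped them and DDIT4 at 2.90 to 13.7 CPM overlapped senescent co-culture. The part of these shifts in the co-culture differences was not tested.

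Matrix and medium were then set against control and each other. Against control, 0 of 35 genes passed on senescent ECM, 0 on young ECM and 0 with young CM (edgeR), where 0.289%, 0.605% and 0% of all genes passed. At an unadjusted p under 0.05 the counts were 6, 8 and 3, and DESeq2 called 1, 1 and 0. The shares of all genes above are those of edgeR at the adjusted threshold, so they are no yardstick for these counts. Same-numbered control and young ECM libraries deviated together (correlations of 0.518 to 0.689 in 3 of 3 pairs), and with the replicate number as a block 2 genes rose on young ECM, where 1.8% of all genes passed (1.27% higher): NDRG1 (0.94, adjusted p = 0.0151) and BNIP3L (0.55, adjusted p = 0.0425). On senescent ECM the block called NDRG1 (0.86, adjusted p = 0.0355), where 1.14% of all genes passed (0.833% higher), but there the numbers did not pair the libraries (-0.221 to 0.635). With senescent CM, 1 gene rose and 0 fell, where 0.505% of all genes passed (0.305% higher, 0.2% lower): DDIT4 was at 8.67, 9.14 and 15.5 CPM, against the control values above, and the groups did not overlap (1.56 ± 0.28, adjusted p = 0.0173). That call was lost without control replicate 2, 3 or 4 or without senescent CM replicate 4, with adjusted p-values up to 0.112.

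Without the block, the member nearest the threshold on ECM was NDRG1 (ENSG00000104419), a growth-arrest and stress gene induced by hypoxia. It was at 177, 216 and 170 CPM on senescent ECM and at 211, 157 and 237 CPM on young ECM, against 126, 81.0 and 108 CPM in control. Both ECM groups lay above all control libraries, by 0.83 ± 0.20 (adjusted p = 0.122) and 0.93 ± 0.20 (adjusted p = 0.0515), which missed the threshold in that fit. SLC2A1 was at 43.3, 44.6 and 30.9 CPM on senescent ECM and at 42.5, 26.9 and 39.4 CPM on young ECM, a difference from control of -0.59 ± 0.25 (adjusted p = 0.631) and -0.71 ± 0.25 (adjusted p = 0.317), with groups that overlapped. With young CM the smallest unadjusted p-values were those of CA12, a membrane carbonic anhydrase, at -0.45 ± 0.17, DDIT4 at 0.66 ± 0.27 and the enzyme ALDOA at -0.44 ± 0.19 (adjusted p = 0.865 each).

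When ECM was set directly against CM over both MSC states, 8 of 35 genes passed (4 higher and 4 lower on ECM), where 11.6% of all genes passed (6.69% higher, 4.9% lower). Higher on ECM were NDRG1, ENO2, BNIP3L and CA12; lower were DDIT4, SLC2A1, ANKRD37 and the enzyme TPI1. The 8 genes are 22.9% of the set, and its median log2 difference was -0.01, against -0.02 over all genes.

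DDIT4 was at 2.08, 2.51 and 2.32 CPM on senescent ECM and at 1.45, 3.04 and 2.68 CPM on young ECM, against 8.67, 9.14 and 15.5 CPM in senescent CM and 5.91, 5.19 and 6.54 CPM in young CM. No ECM library reached a CM library (-1.80 ± 0.20, adjusted p = 2.75e-05). SLC2A1, with the ECM values above, was at 95.2, 79.1 and 88.4 CPM in senescent CM and at 59.7, 48.5 and 71.9 CPM in young CM, again without overlap (-0.95 ± 0.17, adjusted p = 0.00182). ANKRD37 was at 1.82 to 2.83 CPM on ECM, against 2.72 to 3.38 CPM in CM, with overlapping libraries (-0.51 ± 0.13, adjusted p = 0.0143).

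NDRG1 went the other way, with 123, 106 and 85.7 CPM in senescent CM and 92.9, 71.0 and 82.5 CPM in young CM below all 6 ECM values above (1.05 ± 0.14, adjusted p = 0.000187). ENO2 (ENSG00000111674), the neuronal enolase isoform and a known HIF target, was at 23.5, 22.9 and 17.8 CPM on senescent ECM and at 24.9, 17.5 and 25.0 CPM on young ECM, against 14.1, 10.2 and 8.59 CPM in senescent CM and 13.0, 11.2 and 11.6 CPM in young CM (0.92 ± 0.17, adjusted p = 0.00167). The groups did not overlap, while the ubiquitous isoform ENO1 did not pass here. BNIP3L was at 220, 248 and 228 CPM on senescent ECM and at 238, 302 and 214 CPM on young ECM, against 129, 149 and 139 CPM in senescent CM and 155, 180 and 158 CPM in young CM, also without overlap (0.66 ± 0.12, adjusted p = 0.00235).

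CA12 was higher on ECM by 0.47 ± 0.12 (adjusted p = 0.0149) and TPI1, triose phosphate isomerase, lower by a log2 difference of -0.44 ± 0.12 (adjusted p = 0.0296), both with overlapping libraries. All of these calls except that of TPI1 held when any of the 12 libraries was left out. TPI1 was lost, with adjusted p-values up to 0.0873, without replicate 2 or 4 of either ECM group, replicate 2 or 3 of young CM, or replicate 3 or 4 of senescent CM. Taken separately, senescent MSCs gave 5 calls (3 higher, 2 lower), where 4.77% of all genes passed (2.71% higher, 2.06% lower), and young MSCs 2 (1 higher, 1 lower), where 3.36% did (2.15% higher, 1.21% lower). The endothelial list summed to 2181 to 3405 CPM on senescent ECM and 2073 to 3293 CPM on young ECM, against 2067 to 2618 CPM in senescent CM and 1496 to 1839 CPM in young CM. The stromal list was at 39.6 to 53.8 CPM on senescent ECM and 36.5 to 51.9 CPM on young ECM, against 79.8 to 82.4 CPM in senescent CM and 66.3 to 71.6 CPM in young CM. The epithelial list differed by more. It summed to 1143 to 1206 CPM on senescent ECM and 1012 to 1309 CPM on young ECM. In senescent CM it was at 4230 to 5171 CPM and in young CM at 3336 to 4622 CPM. Of its 5 tested genes 3 were lower on ECM, KRT7 by a log2 difference of -2.26, KRT18 by -1.49 and KRT8 by -1.31. EPCAM was under 1 CPM in every senescent CM library of replicates 2 to 4, but not in every library of young CM or of either ECM group. The part of these shifts in the ECM and CM difference was not tested.

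**Figure D2:**
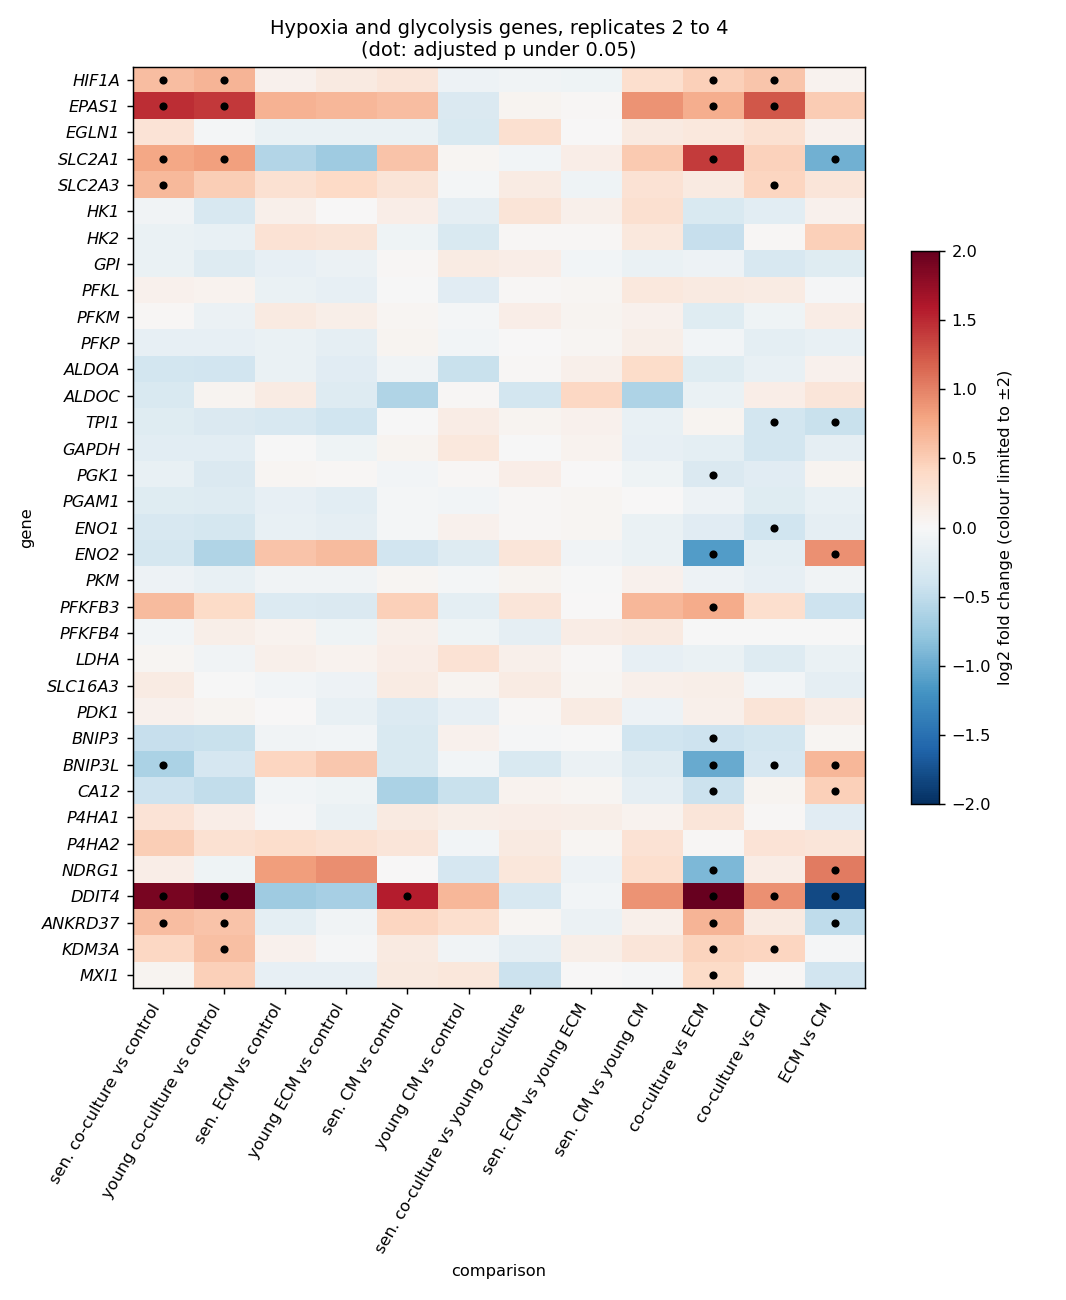
Log2 fold change (colour, limited to ±2) of the 35 tested genes on the y axis in 12 comparisons on the x axis, replicates 2 to 4, with a dot where the adjusted p was under 0.05. DDIT4 changes colour between ECM (-1.80 against CM) and co-culture (2.71 against ECM), the enzyme rows stay pale except ENO2 and ALDOC, and none of the 3 columns of senescent against young MSCs holds a dot.

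Co-culture was also compared with ECM and with CM over both MSC states, 2 comparisons added after the values had been seen. Against ECM 14 of 35 genes passed (8 higher, 6 lower), where 26.8% of all genes did (13.7% higher, 13.1% lower), and against CM 8 (5 higher, 3 lower), where 16.8% did (9.03% higher, 7.81% lower). DDIT4 was higher than on ECM by 2.71 ± 0.18 (adjusted p = 1.81e-09) and SLC2A1 by 1.40 ± 0.16 (adjusted p = 1.44e-06), and in neither gene did the groups overlap. PFKFB3 was at 56.2, 65.6 and 64.3 CPM in senescent and 62.4, 41.1 and 53.2 CPM in young co-culture, against 34.1, 33.8 and 32.8 CPM on senescent and 36.1, 20.8 and 43.1 CPM on young ECM, which overlapped in a single library pair (0.74 ± 0.18, adjusted p = 0.00477). EPAS1 (0.73), ANKRD37 (0.68), HIF1A (0.48), KDM3A (0.44) and MXI1 (0.39), an antagonist of MYC, were the other genes that rose. Of these, all but MXI1 were without overlap, with the co-culture values above. EPAS1 was at 79.7, 81.4 and 58.3 CPM on senescent and 84.3, 42.6 and 89.2 CPM on young ECM. HIF1A was at 162, 148 and 151 CPM on senescent and 170, 139 and 184 CPM on young ECM. The highest ECM library of both genes was a young one, and the lowest of both was young ECM replicate 3. KDM3A was at 40.5, 37.5 and 40.9 CPM on senescent and 39.5, 29.8 and 40.6 CPM on young ECM, and ANKRD37 at 2.09, 1.82 and 2.48 CPM on senescent and 2.12, 2.83 and 2.02 CPM on young ECM.

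Lower in co-culture than on ECM were ENO2 (-1.12 ± 0.15, adjusted p = 1.03e-05), BNIP3L (-1.001 ± 0.11, adjusted p = 1.06e-06) and NDRG1 (-0.90 ± 0.13, adjusted p = 3.1e-05), none with overlapping libraries, and CA12 (-0.43), BNIP3 (-0.42), a second mitophagy receptor, and PGK1 (-0.29), phosphoglycerate kinase. ENO2 was at 11.03, 11.4 and 11.2 CPM in senescent and 9.93, 8.81 and 9.63 CPM in young co-culture. NDRG1 was at 111, 112 and 120 CPM in senescent and 97.0, 86.2 and 111 CPM in young co-culture. The calls of 3 of the 14 genes did not hold in every omission of a library: BNIP3 held in 7 of 12, MXI1 in 5 of 12 and PGK1 in 4 of 12, with adjusted p-values up to 0.094, 0.0992 and 0.141.

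Against CM the genes that rose were EPAS1 (1.25 ± 0.19, adjusted p = 0.000168), DDIT4 (0.92 ± 0.17, adjusted p = 0.00124), HIF1A (0.55 ± 0.11, adjusted p = 0.00153), SLC2A3 (0.43 ± 0.11, adjusted p = 0.0147) and KDM3A (0.43 ± 0.12, adjusted p = 0.0193). Those that fell were ENO1 (-0.40 ± 0.11, adjusted p = 0.0152), TPI1 (-0.37 ± 0.12, adjusted p = 0.0378) and BNIP3L (-0.34 ± 0.11, adjusted p = 0.043). HIF1A was at 174, 163 and 169 CPM in senescent CM and 104, 127 and 166 CPM in young CM, and EPAS1 at 78.7, 60.7 and 66.7 CPM in senescent CM and 36.0, 30.4 and 43.2 CPM in young CM, both under every co-culture library. ENO1 was at 2989, 2902 and 2611 CPM in senescent and 2622, 2858 and 2853 CPM in young co-culture, against 3510, 3733 and 3154 CPM in senescent CM and 4514, 3403 and 3318 CPM in young CM, without overlap. With young MSCs alone 6 genes passed (5 higher, 1 lower), where 11.5% of all genes did (6.09% higher, 5.36% lower). With senescent MSCs alone 0 passed, where 2.08% of all genes did. For senescent MSCs alone 5 had an unadjusted p under 0.05, a level to which the 2.08% does not apply. TPI1 held in 4 and BNIP3L in 2 of 12 omissions, with adjusted p-values up to 0.115 and 0.117, and KDM3A was lost without senescent CM replicate 3 (adjusted p = 0.0604).

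Whether MSC senescence changed the set was asked separately within each way of exposure. None of the 35 genes passed between senescent and young MSCs in co-culture, on ECM or in CM (0, 0 and 0 by edgeR and by DESeq2), where 0.4%, 0% and 0.0167% of all genes passed. At an unadjusted p under 0.05 the counts were 0, 0 and 4, for which no share of all genes is given. The 4 were all in CM and all higher with senescent MSCs: DDIT4 (0.90 ± 0.27) and EPAS1 (0.90 ± 0.28), with adjusted p = 0.666 each, and PFKFB3 (0.67 ± 0.28) and SLC2A1 (0.53 ± 0.24), with adjusted p = 0.768 each. PFKFB3 was at 66.9, 48.5 and 52.3 CPM in senescent CM, against 31.8, 28.4 and 44.3 CPM in young CM. In all 4 genes every senescent CM library lay above every young CM library. The 4 were picked by their p-values in these same libraries, so the separation adds no support. The share of all genes that separate in this way is not given. Of the stromal check list, 6 of 14 genes passed as higher in senescent than in young co-culture, COL1A1 among them, and 0 as lower. TERT, the gene that immortalised the MSC line, lay the other way without overlap. It was at 3.00 to 4.50 CPM in senescent and 5.94 to 7.97 CPM in young co-culture. The list therefore does not rank the MSC share of the 2 co-cultures. Between senescent and young ECM or CM, 0 of 13 passed.

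In co-culture the 3 genes with the smallest unadjusted p-values were MXI1 (-0.43 ± 0.20, adjusted p = 0.897), BNIP3L (-0.31 ± 0.17, adjusted p = 1) and DDIT4 (-0.32 ± 0.18, adjusted p = 1). On ECM they were ALDOC, the brain aldolase (0.42 ± 0.30), PFKFB4 (0.15 ± 0.18) and P4HA1, a collagen prolyl hydroxylase (0.12 ± 0.17), with an adjusted p of 1 each. The difference of the senescence effect between co-culture and CM was largest for DDIT4, at -1.24 ± 0.34 with an unadjusted p of 0.0018 (edgeR), and did not pass (adjusted p = 0.323). Of the set 0 genes passed this test by edgeR or DESeq2, where 0.103% of all genes passed by edgeR. At an unadjusted p under 0.05 the set had 2, and the share of all genes at that level is not given. In DDIT4 all senescent co-culture libraries lay under the young ones, by a slim gap (at most 16.1 against at least 16.9 CPM). All its senescent CM libraries lay above the young ones. DDIT4 was picked for its difference in these same libraries, so these separations add no support. How many of all genes separate in both ways is not given. The difference between CM and ECM was 0.96 ± 0.39 for DDIT4, -1.04 ± 0.43 for ALDOC and 0.88 ± 0.39 for EPAS1 (adjusted p = 1 each). Of the set 0 genes passed by either tool, where 0% of all genes passed by edgeR. At an unadjusted p under 0.05 the set had 3, and the share of all genes at that level is not given.

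Levels per kilobase of exon show how the pathway is stocked. GAPDH was the most abundant member, with group means of 2067 to 2755 CPM per kb, followed by ENO1 at 527 to 710, TPI1 at 419 to 605, PKM, the last enzyme of the pathway, at 422 to 484, and LDHA at 368 to 467 CPM per kb; GAPDH stood clear of the others, while neighbours from ENO1 to LDHA overlap in their ranges over the groups. The other enzymes, early and late, were lower. HK1, the housekeeping hexokinase, was at 31.4 to 43.4 CPM per kb, HK2, the inducible one, at 1.62 to 2.49, and GPI at 17.7 to 23.6. The phosphofructokinases were at 77.7 to 90.5 for PFKP, 16.3 to 20.3 for PFKL and 12.04 to 14.91 for PFKM. Of the later steps, PGK1 was at 92.9 to 117 and PGAM1 at 99.7 to 120. The length used is that of all annotated exons together, 10680 bases for GPI and 2568 for PGAM1, and the order depends on it. ALDOA was at 13.5 to 18.6 CPM per kb; an annotated gene on the same strand overlaps it, and how reads in an overlap were counted is not given in the sources used here.

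Among the carriers, SLC2A1 ran from 7.68 to 22.1 CPM per kb over the groups, and ENO2 from 2.21 to 5.25 CPM per kb. SLC16A3 was at 21.5 to 25.5 CPM per kb. HIF1A, at 25.7 to 44.7 CPM per kb, was above EPAS1, at 5.00 to 17.1 CPM per kb. CA9, the carbonic anhydrase often used as a hypoxia marker, had at most 0.0136 CPM in replicates 2 to 4; it and EGLN3 were the 2 genes that failed the filter. ALDOC stood under 0.1 CPM per kb.

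**Figure D3:**
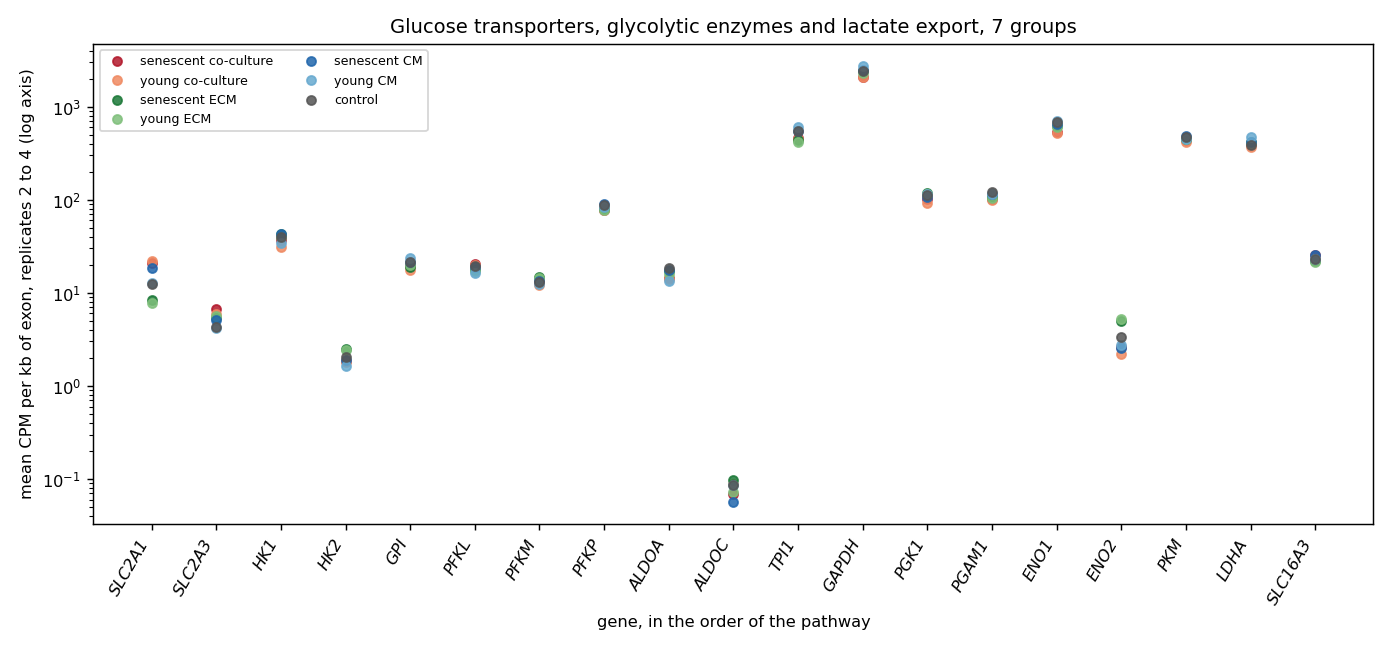
Mean CPM per kb of exon in replicates 2 to 4 (y axis, log scale) for 19 genes of the pathway in order (x axis), 1 point per group. Points of the 7 groups lie close together in most enzymes, with GAPDH between 2067 and 2755, and spread most in SLC2A1 and ENO2.

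Other genes of the pathway came from lists chosen for their known roles. Among 30 further hypoxia targets, 27 were tested, and 8 rose and 2 fell in senescent co-culture, against 6 and 3 in young co-culture, relative to control. Over all genes tested, 5.84% rose and 2.23% fell with senescent MSCs, and 6.7% rose and 2.98% fell with young MSCs, and the counts of the lists that follow stand against the same shares. ADM, the vasodilator peptide adrenomedullin, averaged 33.2 ± 4.9 CPM in senescent and 37.5 ± 1.3 CPM in young co-culture, against 19.6 ± 1.9 CPM in control (SD, n = 3 each; log2 fold change 0.77 and 0.94). VEGFA, the main vessel growth factor, averaged 12.8 ± 1.1 and 11.8 ± 1.2 CPM, against 7.93 ± 0.55 CPM in control (0.70 and 0.58), and BHLHE40, a HIF-induced repressor, 120 ± 13 and 120 ± 6.6 CPM, against 58.3 ± 15 CPM (1.05 in both). LOX, the collagen crosslinking oxidase, fell to 38.2 ± 2.5 and 35.2 ± 4.0 CPM, against 74.1 ± 14 CPM in control (-0.95 and -1.07), and it was the 1 gene of this list that passed with senescent CM (-1.20 ± 0.19, adjusted p = 0.00902). AK4, a mitochondrial adenylate kinase, rose by 2.37 and 1.60 but stayed at or under 1.17 CPM in co-culture, and was at 10.5 to 18.1 CPM in replicate 1 of the control, ECM and CM groups. In the same replicate 1 libraries LOX was at 447 to 812 CPM and VEGFA at 30.4 to 79.9 CPM; the part of stromal RNA in these differences was not tested.

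Of the 10 tested genes for glucose sensing and further transport, 3 rose and 1 fell in senescent co-culture and 2 rose in young co-culture. TXNIP, an arrestin that removes GLUT1 from the membrane and is induced by glucose, averaged 6.57 ± 1.4 CPM in senescent and 10.4 ± 0.49 CPM in young co-culture, against 3.70 ± 0.43 CPM in control (0.84 and 1.49). Its relative ARRDC4 rose by 4.05 and 2.40 but reached at most 0.52 CPM in co-culture. Among 11 tested further glycolytic isozymes, 1 rose and 1 fell in senescent co-culture, and 1 rose and 1 fell in young co-culture. HKDC1, a hexokinase-like gene, fell to 1.36 ± 0.15 and 0.967 ± 0.11 CPM, against 4.87 ± 1.4 CPM in control (-1.83 and -2.33). The enolase ENO3 averaged more than in control, at 17.3 ± 1.6 and 16.8 ± 0.77 CPM, against 12.4 ± 0.50 CPM. In the pentose phosphate list 2 of 7 genes fell in both co-cultures and 0 rose: PGD, which makes NADPH, by -0.76 and -0.63, and TALDO1, transaldolase, by -0.76 and -0.83. In the pyruvate and citrate cycle list of 30 genes, 2 fell with senescent MSCs and 3 fell and 1 rose with young MSCs, among them SDHA, the flavoprotein of succinate dehydrogenase, at 24.5 ± 0.64 and 23.6 ± 2.3 CPM, against 41.7 ± 8.6 CPM in control. Of 14 further HIF regulators, CITED2, a competitor of HIF for its coactivator, fell with senescent MSCs (-0.74 ± 0.16, adjusted p = 0.0134) and 0 passed with young MSCs. None of these 6 pathway lists had a gene past the threshold between senescent and young MSCs.

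Replicate 1 did not repeat the levels of replicates 2 to 4. CA12 was 2.93 to 5.18 times the median of replicates 2 to 4 in replicate 1 of the control, ECM and CM groups, at 17.4 to 25.6 CPM. In replicate 1 of young co-culture, 14 of 35 genes were more than 2-fold above that median and 10 were under 0.5 of it. The genes above were mostly enzymes, from GAPDH at 9.15 times down. These ratios carry a TMM factor of 0.459 for that library, against 1.06 to 1.07 in the others of its group: on library size alone, 3 genes (GAPDH at 3.94 times, ALDOA and TPI1) were more than 2-fold above the median and 17 under 0.5 of it. In that library the 37 genes together took 4.53% of its counts. On either scale the genes below included HK2, HIF1A, EPAS1 and DDIT4. HK2 was at 0.108 times the median after TMM scaling and at 0.0466 times on library size. After TMM scaling HIF1A was at 35.2 CPM, EPAS1 at 18.2 CPM and DDIT4 at 7.56 CPM. Ribosomal protein genes took 27.9% of counts in that library, against 5.97 to 9.33% in young co-culture replicates 2 to 4. With replicate 1 included, 0 genes of the set passed in either co-culture against control, and 3 passed in ECM against CM. Over all genes only 30 then passed in senescent and 44 in young co-culture against control.

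**Figure D4:**
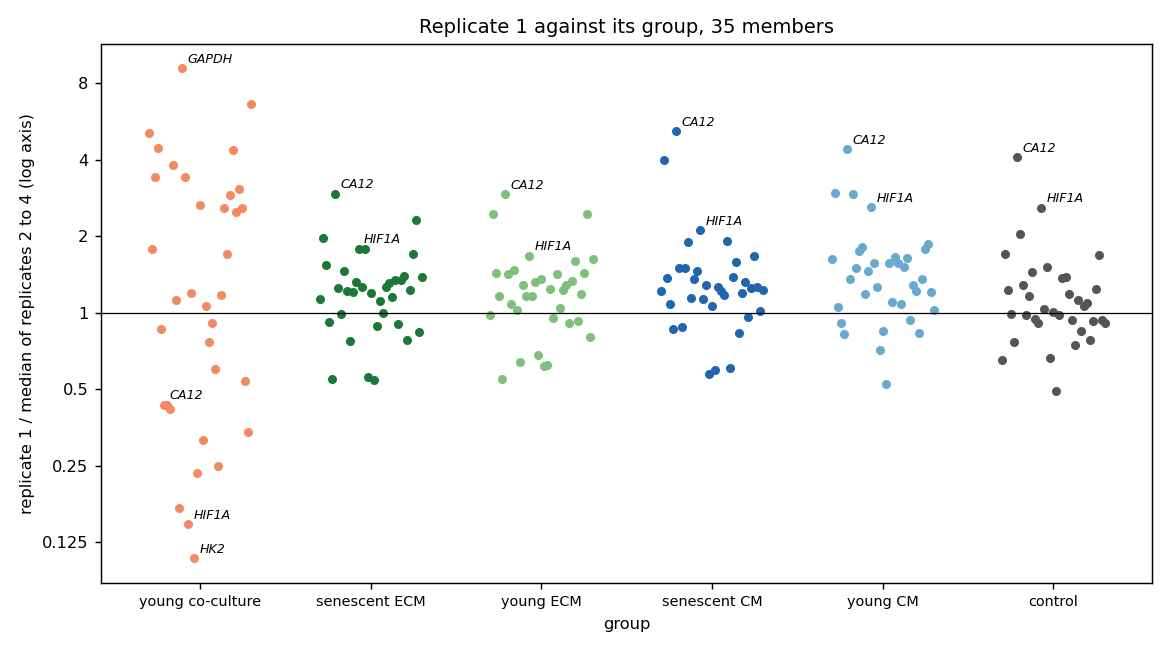
Ratio of replicate 1 to the median of replicates 2 to 4 in TMM-scaled CPM (y axis, log scale; the line marks 1) for the 35 tested genes, 1 point per gene, in the 6 groups that have a replicate 1 (x axis). Young co-culture spreads from 0.108 (HK2) to 9.15 (GAPDH), and CA12 is at the top of the 5 other groups.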

How the data were processed

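Libraries were made from poly(A) RNA, per the labels' protocols. The submitters' processing notes name HISAT2 2.2.1, featureCounts 2.0.1 and the build GRCh38 (hg38). For featureCounts, neither strand nor multi-mapping settings nor an annotation release is given there. The deposited table holds raw whole-number counts per gene from the authors for 60648 entries. Left out were 44 pseudoautosomal Y copies (109832 counts), and 0 columns belonged to other samples. A name table gave symbols for 60462 entries. GENCODE 29 gave exon lengths and positions for 58336, of which 37288 had the same versioned identifier. Chi-square per degree of freedom was at least 19.8 for every pair of libraries within a group, so none counted as a duplicate.

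Genes were tested with edgeR 4.0.16 in R 4.3.3 (quasi-likelihood F-test, 2-sided, TMM scaling, filterByExpr at a minimum of 10 counts, Benjamini-Hochberg over all genes tested, threshold 0.05) on replicates 2 to 4. One fit held control, ECM and CM (15 libraries, 18015 genes), another control and co-culture (9 libraries, 17729 genes), and a last one all groups (21 libraries, 18492 genes), used where co-culture was set against CM or ECM. Alternatives were DESeq2 1.42.0, RLE scaling, no filter, all replicates, a replicate block and leaving out each library; leaving out libraries above 10% ribosomal protein counts, each MSC state alone, and the comparisons of co-culture with CM and with ECM were chosen after seeing the data. Replicate numbers were taken to pair the samples where all 3 same-numbered pairs of the groups compared had a correlation of deviations from the group means over 0.1. That held between control and young ECM (0.518 to 0.689), young CM (0.473 to 0.734) and young co-culture (0.229 to 0.737), from the data and not from a label. The replicate block was set over all groups of a fit, including groups that did not pair in this way. Scripts were tested on simulated data.

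The genes, lists and tests were chosen with earlier results of these data known. A gene that passed the threshold is named with its value in each library where the groups did not overlap and otherwise with its fold change. Where none passed, the 3 with the smallest unadjusted p are named, and up to 3 examples are given per list. A few further values (GAPDH, PFKFB3, ANKRD37 by range, the lactate genes, AK4 and levels per kb) and the other list genes beyond 3 were picked after they were seen. Of the 37 genes, 28 overlap another annotated gene and 14 have named pseudogenes (62 for GAPDH, 39 for BNIP3), so their counts are uncertain where reads are shared.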

Additional observations from a re-analysis of the deposited data

Results flagged for a closer look

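A gap test (Dixon, 95% level) of the highest or lowest library in each group of 4 libraries marked 23 of 108 tests over the genes that passed in a comparison and the share of counts of the set. Chance would mark about 1 in 20 independent groups. These tests share the same libraries, and their genes were chosen by tests on replicates 2 to 4 alone, so that rate is no yardstick here. Of the 23 marked libraries 22 are replicate 1, a count that this choice of genes can raise. In young co-culture replicate 1, the 37 genes took 4.53% of counts, and the library was marked for ANKRD37 (12.2 CPM), BNIP3 (199 CPM), ENO1 (10917 CPM), PGK1 (1234 CPM) and TPI1 (7944 CPM), all above its group, and for CA12 (1.81 CPM), DDIT4 (7.56 CPM), HIF1A (35.2 CPM), KDM3A (13.1 CPM) and SLC2A3 (12.8 CPM), all below it. These levels carry that library's TMM factor of 0.459, against 1.06 to 1.07 in the others of its group. CA12 stood above the group in replicate 1 of senescent ECM (17.4 CPM), young ECM (17.7 CPM), senescent CM (20.4 CPM), young CM (19.3 CPM) and control (25.6 CPM). HIF1A did so in replicate 1 of senescent ECM (270 CPM), senescent CM (357 CPM) and control (381 CPM). ANKRD37 in senescent CM replicate 1 (4.42 CPM) and PFKFB3 in senescent ECM replicate 1 (44.4 CPM) were high, and SLC2A3 in senescent ECM replicate 1 (27.7 CPM) was low. The library outside replicate 1 was young ECM replicate 3, with ENO2 low at 17.5 CPM; ribosomal protein genes took 12.4% of its counts.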

How the results depend on the processing

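Over 68 pairs of a named gene and a comparison (44 past the threshold), 1092 values under an alternative setting kept direction and call in 905, lost the call in 167, gained it in 14 and reversed in 6. The reversals were, with all replicates, HIF1A in young co-culture against control (-0.22), HIF1A for the senescence effect in co-culture minus CM (0.033), BNIP3 (0.058) and PGK1 (0.018) in co-culture against ECM, and TPI1 in co-culture against CM (0.25), and, without senescent ECM replicate 4, P4HA1 in senescent against young ECM (-0.063, with up to 0.22 when other libraries were left out). The causes were not tested. Counts of set genes past the threshold are given next, without the share of all genes in each setting. The count over all genes moved too: with all replicates it was 30 in senescent and 44 in young co-culture against control, where the main fit gave 1430 and 1717. A change in a set count is therefore not a result about the set. With all replicates they were 0 in senescent CM, senescent co-culture and young co-culture against control, 3 in ECM against CM, 0 in co-culture against CM and 5 in co-culture against ECM. DESeq2 gave 1 in senescent ECM, 1 in young ECM, 2 in senescent CM and 10 in young co-culture, each against control. Without the low-count filter they were 2 in senescent against young CM (EPAS1 and DDIT4, both higher), 1 in senescent ECM and 2 in young ECM against control, and 1 for the senescence effect in co-culture minus CM (DDIT4). Without the libraries above 10% ribosomal protein counts they were 2 in senescent ECM, 1 in young ECM, 2 in senescent CM and 10 in young co-culture against control, and 4 in co-culture against CM. With senescent MSCs alone they were 5 in ECM against CM, 0 in co-culture against CM and 8 in co-culture against ECM, and with young MSCs alone 2 in ECM against CM. Leaving out 1 library gave 0 to 1 in young ECM and in senescent CM, 2 to 10 in senescent co-culture and 2 to 10 in young co-culture against control, 7 to 10 in ECM against CM, 5 to 14 in co-culture against CM and 11 to 15 in co-culture against ECM.

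Of 63 same-numbered pairs of libraries 43 had a correlation of deviations above 0.1 (-0.494 to 0.874, median 0.244), and 15 of 21 libraries correlated best with their own number, a hint from the data and not the design. With a replicate block the set counts were 1 in senescent ECM, 2 in young ECM and 2 in senescent CM against control, and within 1.5 times the main count in the other comparisons. Each of the 15 calls that differed under the block was a gain.

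Over all genes, the count past the threshold and its range over the settings were 0 (0 to 37) for senescent against young ECM, 3 (0 to 148) in CM and 71 (0 to 249) in co-culture; against control 52 (0 to 290) for senescent ECM, 109 (0 to 363) for young ECM, 91 (0 to 284) for senescent CM, 0 (0 to 109) for young CM, 1430 (30 to 2147) for senescent and 1717 (44 to 2367) for young co-culture; 2089 (605 to 3369) for ECM against CM; 3114 (315 to 5044) for co-culture against CM; 4954 (1810 to 6184) for co-culture against ECM; and 0 (0 to 49) and 19 (0 to 184) for the senescence effect in CM minus ECM and in co-culture minus CM. Genes near 0 (CA9, EGLN3) were not testable at this depth.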
